A study of Homo sapiens with 2 samples.

Results

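MALAT1, NEAT1, TUG1, NORAD, H19, MEG3, KCNQ1OT1, OIP5-AS1, PVT1 and HOTAIR are 10 long non-coding RNA genes that are widely studied in cancer, and several of them are counted among the most abundant long non-coding RNAs of human cells. They were chosen by name, with earlier results of these data known. Of the 10, 8 had a row among the 19029 genes of the table, and 7 of these reached a mean of at least 1 CPM (counts scaled to library size) and were compared. KCNQ1OT1 lay below that level, and H19 and MEG3 were not analysed here. The table held 2750 long non-coding RNA genes in all, of which 637 were compared.

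The cells were BT549, an established human breast cancer line of mesenchymal character. One group overexpressed SNHG15, a long non-coding RNA that hosts a small nucleolar RNA, and the other carried a control vector. Total RNA was sequenced from 1 library of each group, called SNHG15 cells and vector cells below. Since each group is 1 library, differences could not be set against a spread between replicates and no p-value was calculated. The 95% intervals given with levels and ratios cover counting error only. In bulk RNA, fewer cells with a transcript and less of it per cell cannot be told apart.

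Long non-coding RNAs act as RNA, without being translated, and their place in the cell shapes what they do. MALAT1 is retained in nuclear speckles, bodies rich in splicing factors, and NEAT1 is the scaffold of paraspeckles, bodies built on the RNA by proteins such as NONO and SFPQ. NORAD is mainly cytoplasmic and binds Pumilio proteins, repressors of messenger RNAs, while HOTAIR, KCNQ1OT1 and PVT1 are known for ties to chromatin regulators or to the gene beside them.

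The next sequences are shown because they are the features by which MALAT1, NEAT1 and NORAD are made or bound. MALAT1 and the long form of NEAT1 are not ended by ordinary polyadenylation: RNase P cuts after an A-rich tract, just upstream of a tRNA-like element, and the tract then folds into a triple helix. Both stretches are from GENCODE 29 (GRCh38, plus strand), 5′ to 3′. The MALAT1 stretch is bases 8296 to 8417 of a transcript of 8708 bases, at chr11:65506057-65506178, and the NEAT1 stretch is the last 60 bases of a transcript of 22743 bases, at chr11:65445481-65445540. Capitals mark AAGCAAAA, the last letters of the A-rich tract, and in MALAT1 also GTTCAAATC, the B box of the tRNA-like element.
MALAT1 3′ region: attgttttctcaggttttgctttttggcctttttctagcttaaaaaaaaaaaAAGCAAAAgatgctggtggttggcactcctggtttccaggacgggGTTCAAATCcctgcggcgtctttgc
NEAT1 3′ end: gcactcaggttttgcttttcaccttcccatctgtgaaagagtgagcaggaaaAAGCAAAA
AAGCAAAA was read on the transcript strand and was present in 7.69% of the longest transcripts of the 637 long non-coding RNA genes compared. Among them NEAT1 alone ended with it, and MALAT1 alone was one in which GTTCAAATC followed it within 100 bases, at 37 bases. The annotated MALAT1 transcript runs on past the tRNA-like element.

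NORAD is shown for its Pumilio elements, TGTANATA, searched on the transcript strand with overlaps allowed. Its transcript of 5339 bases held 15, or 2.81 per kb, of which 10 read TGTATATA, while 13.5% of the 637 longest transcripts held at least 1. HCG11 was the only gene with more, at 16 in a transcript of 5696 bases. The other members compared held fewer, with 6 in NEAT1, 3 in HOTAIR, 2 in TUG1, 1 in OIP5-AS1 and 0 in MALAT1 and PVT1. In NORAD, 3 pairs of elements lay with starts 9 bases apart, and they are given 5′ to 3′ on the minus strand (GENCODE 29, GRCh38) with the elements in capitals, from chr20:36049497-36049525, chr20:36048300-36048328 and chr20:36047664-36047692.
NORAD pair 1: tatctgTGTATATAgTGTACATAaaggac
NORAD pair 2: ctatacTGTATATAtTGTATATAtaacgg
NORAD pair 3: gtgctgTGTATATAgTGTATATAagcgga

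The library of SNHG15 cells held 16570496 counts over 18086 detected genes and that of vector cells 20799017 counts over 18144. SNHG15 itself was at 1997 CPM in SNHG15 cells and 23.3 CPM in vector cells, 85.6-fold higher (78.1 to 93.98). Of 8 mesenchymal markers 2 were called higher and 3 lower by the wider rule given below: VIM stood at 1998 CPM in SNHG15 cells and 1993 CPM in vector cells, CDH2 at a ratio of 5.28, SPARC at 1.78, FN1 at 0.555, TWIST1 at 0.597 and ZEB1 at 0.590. Of 4 epithelial markers compared 2 were lower and 0 higher, with a median log2 ratio of -0.62. KRT18 stood at 702 CPM in SNHG15 cells and 1200 CPM in vector cells, CLDN7 had 2 counts in SNHG15 cells and 40 in vector cells, and CDH1, not compared, had 12 and 11. ESR1, PGR, the blood markers PTPRC and CD3E, the vessel markers PECAM1, CDH5 and VWF, and the fibroblast markers DCN and LUM had no row. The blood marker CD14 had 133 counts in SNHG15 cells and 347 in vector cells, and the fibroblast markers PDGFRA and PDGFRB had 65 and 66 in SNHG15 cells and 157 and 93 in vector cells. Mitochondrial genes took 3.71% of counts in SNHG15 cells and 4.87% in vector cells. Ratios moved with GC content: across 12895 genes Spearman's rho between the log2 ratio and transcript GC content was -0.32, which describes these 2 libraries, and the median log2 ratio ran from 0.23 in the lowest of 10 equal bins of GC content to -0.31 in the highest. With that trend removed the log2 ratio of MALAT1 was 0.74 and still called by the wider rule described below.

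Among the members NORAD was by far the most abundant, and MALAT1 and NEAT1 were far below it. NORAD had 1431 counts in SNHG15 cells and 1443 in vector cells, which made up 46.0% and 47.0% of all counts of the members. All members together had 3113 counts in SNHG15 cells and 3073 in vector cells, or 3.87% and 3.11% of the counts of long non-coding RNAs other than SNHG15. MALAT1 took 0.00247% of all counts in SNHG15 cells and 0.0012% in vector cells. Whether polyadenylated RNA was selected is not given in the labels, and its part in the level of MALAT1 and NEAT1, whose ends are described above, was not tested.

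**Figure D1:**
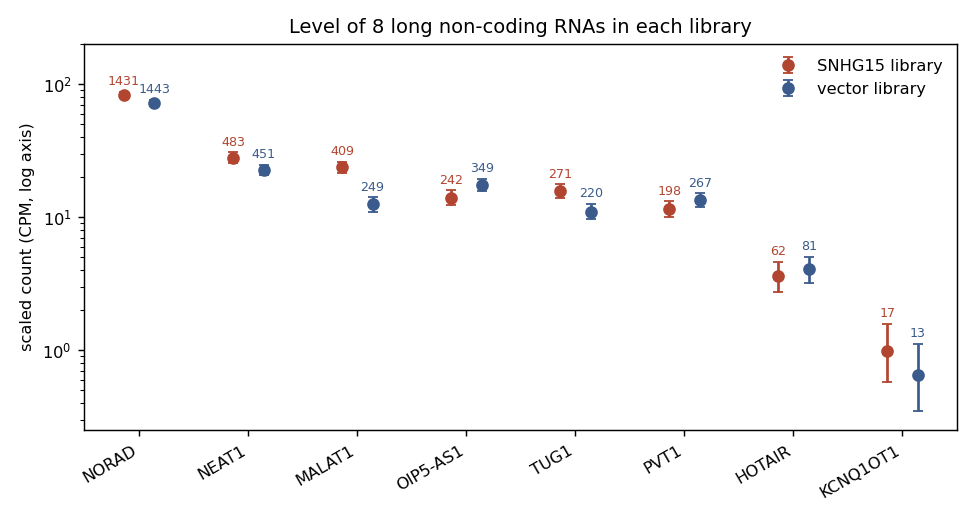
Scaled count (CPM, log axis) of the 8 measured members in SNHG15 cells (red, left of each pair) and vector cells (blue), with exact Poisson 95% intervals as bars and the raw count printed above each point. NORAD stands at 82.9 and 72.2 CPM, the other members lie between 0.651 and 28.0 CPM, and the MALAT1 intervals of the 2 libraries are well apart.

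Levels of different genes were compared as CPM per kb of merged exons. In SNHG15 cells NORAD stood at 15.5, MALAT1 at 2.68, PVT1 at 2.09, TUG1 at 1.55, HOTAIR at 1.38, NEAT1 at 1.23, OIP5-AS1 at 1.11 and KCNQ1OT1 at 0.0107. The intervals of NORAD, MALAT1, PVT1 and TUG1 did not overlap from one to the next, whereas TUG1, HOTAIR, NEAT1 and OIP5-AS1 overlapped their neighbours in that order. The merged exons of TUG1 came to 10151 bases, more than its gene span of 8719, so this scale may understate TUG1. The gap between its interval and that of PVT1 depends on that length. In vector cells the order was NORAD at 13.5, PVT1 at 2.43, HOTAIR at 1.56, MALAT1 at 1.41, OIP5-AS1 at 1.38, TUG1 at 1.085, NEAT1 at 0.992 and KCNQ1OT1 at 0.0071. There the 5 genes HOTAIR, MALAT1, OIP5-AS1, TUG1 and NEAT1 each overlapped the next. On this scale MALAT1 was thus the second in SNHG15 cells and below PVT1 and HOTAIR in vector cells. NEAT1 stood at 0.458 of MALAT1 per kb in SNHG15 cells and at 0.702 in vector cells.

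On the same per-kb scale NORAD ranked 21 in SNHG15 cells and 34 in vector cells among the 2750 long non-coding RNA genes. MALAT1 ranked 158 in SNHG15 cells and 347 in vector cells, and NEAT1 ranked 356 and 475. By CPM, which favours long transcripts, they stood higher, MALAT1 at 27 in SNHG15 cells and 74 in vector cells, NEAT1 at 22 and 35, and NORAD at 6 and 7. By the deposited FPKM (fragments scaled by gene length and library size), MALAT1 ranked 272 in SNHG15 cells and 527 in vector cells. The length implied by its deposited FPKM was 16891 bases, against a gene span of 8755, so FPKM understates MALAT1 beside other genes. For NORAD the implied length and the span were both 5339 bases. On the CPM scale hosts of small nucleolar RNAs led, with SNHG29 at 370 CPM in SNHG15 cells and 264 CPM in vector cells. GAS5 ranked 3 in SNHG15 cells, at 138 CPM, but 8 in vector cells, at 63.7 CPM and below NORAD.

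**Figure D2:**
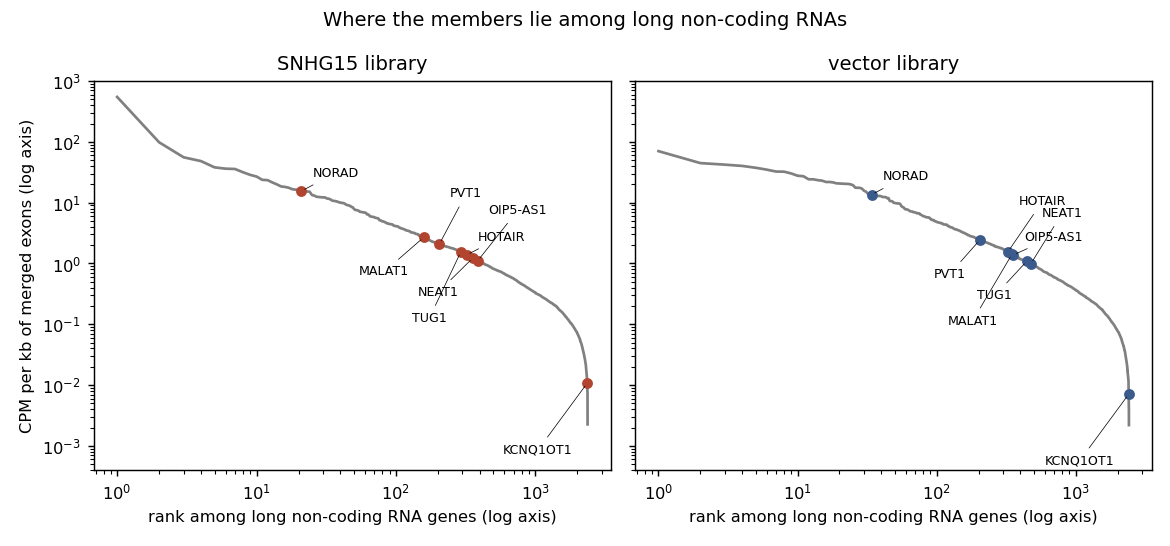
CPM per kb of merged exons (log axis) of each long non-coding RNA gene against its rank (log axis), in SNHG15 cells (left) and vector cells (right), with the 8 members as points. NORAD lies near the head at ranks 21 and 34, MALAT1 at 158 and 347, and KCNQ1OT1 near the foot of the curve.

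The comparison of the libraries asked which of these RNAs differ when SNHG15 is overexpressed. A gene was called by the strict rule where its whole interval lay beyond 2-fold, and by the wider rule where its interval excluded 1 and its ratio was at least 1.5-fold. By the strict rule 0 of the 7 compared members were higher and 0 lower, against 2.2% and 2.45% of all 12934 genes compared. By the wider rule 1 was higher, MALAT1, and 0 were lower, against 13.3% higher and 12.2% lower of all genes. Those shares stand for 1725 and 1574 genes, which library totals changed to 2380 higher and 1151 lower. A count of 1 in 7 is near that background. The median log2 ratio of the 7 was 0.20, beside 0.02 over all genes.

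MALAT1 (ENSG00000251562, chr11:65497762-65506516, plus strand) had 409 counts in SNHG15 cells and 249 in vector cells, or 23.7 and 12.5 CPM. It was 1.90-fold higher in SNHG15 cells (1.62 to 2.24), a log2 ratio of 0.92. From the deposited FPKM with a pseudocount of 1 the log2 ratio was 0.53, which the wider rule did not call. Of all genes compared, 11.6% lay at least as far from 0, as did 18.1% of the long non-coding RNA genes. The GC bin that holds MALAT1 had a median log2 ratio of 0.24, and 19.4% of its genes were higher by the wider rule. In the authors' deposited table MALAT1 was called UP with a log2 ratio of 1.04 and an adjusted p-value of 0.00164, where 4.88% of all genes were called UP; edgeR was run there with an assumed variation, since 1 library a group cannot give one. AP000769.2, which overlaps MALAT1 on the other strand, had 1 count in SNHG15 cells and 4 in vector cells.

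NEAT1 (ENSG00000245532, chr11:65422774-65445540, plus strand) had 483 counts in SNHG15 cells and 451 in vector cells, or 28.0 and 22.6 CPM. Its ratio was 1.24 (1.09 to 1.41), under the 1.5-fold of the wider rule. The short and long forms of NEAT1, of which the long one builds paraspeckles, share 1 row and were not separated. Between MALAT1 and NEAT1 the scaling of the libraries cancels: MALAT1 had 0.847 counts per NEAT1 count in SNHG15 cells and 0.552 in vector cells, 1.53-fold apart (1.25 to 1.89).

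TUG1 (ENSG00000253352, chr22:30970677-30979395, plus strand), a transcript linked to Polycomb repression, had 271 counts in SNHG15 cells and 220 in vector cells, or 15.7 and 11.01 CPM. Its ratio was 1.43 (1.19 to 1.71), which passed 1.5-fold when library totals replaced the scaling, with 32.6% of all genes at least as far from 0 on the log2 scale. The small AC004542.6, which lies inside it on the same strand, had 1 count in each library. MALAT1 and TUG1 had the highest ratios of the compared members, and their promoters are shown for that reason, with CpG dinucleotides, read on the strand shown, in capitals. Each runs from 250 bases before to 50 after the RefSeq start (GRCh38.p14, plus strand, 5′ to 3′), at chr11:65497488-65497787 and chr22:30969015-30969314.
MALAT1 promoter: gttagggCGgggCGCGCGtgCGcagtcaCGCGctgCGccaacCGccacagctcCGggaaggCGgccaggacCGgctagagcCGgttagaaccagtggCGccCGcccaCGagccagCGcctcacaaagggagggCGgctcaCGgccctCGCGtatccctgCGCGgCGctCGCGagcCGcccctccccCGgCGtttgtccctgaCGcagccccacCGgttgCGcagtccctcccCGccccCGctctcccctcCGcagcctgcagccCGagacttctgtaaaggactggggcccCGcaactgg
TUG1 promoter: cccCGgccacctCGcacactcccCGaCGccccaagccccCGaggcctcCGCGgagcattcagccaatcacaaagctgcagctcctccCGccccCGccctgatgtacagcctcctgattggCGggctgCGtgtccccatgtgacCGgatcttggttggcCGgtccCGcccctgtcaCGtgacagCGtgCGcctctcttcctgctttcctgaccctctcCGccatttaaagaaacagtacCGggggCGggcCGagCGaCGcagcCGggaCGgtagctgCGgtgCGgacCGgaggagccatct
The MALAT1 promoter held 37 CpG and the TUG1 promoter 28, and 11.3% and 26.2% of 35116 promoters of the same length held at least as many. NORAD and OIP5-AS1 each had 23 in their promoter, which 35.8% of promoters reached. Promoters were read for these 4 of the members measured. No RefSeq promoter was matched for NEAT1, HOTAIR and KCNQ1OT1, and PVT1 was left out beforehand.

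NORAD (ENSG00000260032, chr20:36045622-36050960, minus strand) had the smallest counting error of the members. It stood at 82.9 CPM in SNHG15 cells and 72.2 CPM in vector cells, a ratio of 1.15 (1.07 to 1.24). Genes of like GC content had a median log2 ratio of 0.18, against 0.20 for NORAD. The interval excludes a 1.5-fold difference in either direction as far as counting error goes.

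OIP5-AS1 (ENSG00000247556, chr15:41283990-41309737, plus strand), which binds the RNA-stabilising protein ELAVL1, was the lowest of the compared members by ratio. It had 242 counts in SNHG15 cells and 349 in vector cells, or 14.03 and 17.5 CPM, a ratio of 0.803 (0.679 to 0.948). Genes of its low GC content had a median log2 ratio of 0.23, so OIP5-AS1 lay 0.54 below them on that scale. With neighbouring genes as reference and the GC trend removed its log2 ratio was -0.74, against -0.31 as reported, and it was then called lower. OIP5, a centromere protein gene whose end overlaps it on the opposite strand, had 174 counts in SNHG15 cells and 157 in vector cells, a ratio of 1.28 (1.03 to 1.60). Whether the libraries kept strand is not given in the labels, so reads of such pairs cannot be told apart.

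PVT1 (ENSG00000249859), which lies beside MYC on chromosome 8, had 198 counts in SNHG15 cells and 267 in vector cells, or 11.5 and 13.4 CPM. Its ratio of 0.859 had an interval that held 1 (0.711 to 1.04). MYC, the growth-promoting transcription factor, had 367 counts in SNHG15 cells and 431 in vector cells, a ratio of 0.986 (0.855 to 1.14). For neither was a difference detectable at this depth.

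HOTAIR (ENSG00000228630, chr12:53962308-53974956, minus strand), transcribed from the HOXC cluster and known for binding the Polycomb complex PRC2, had 62 counts in SNHG15 cells and 81 in vector cells. That is 3.59 and 4.06 CPM, a ratio of 0.886 (0.626 to 1.25), so no difference was detectable. KCNQ1OT1 (ENSG00000269821, chr11:2608328-2699994, minus strand), the antisense RNA that silences imprinted genes in cis, had 17 counts in SNHG15 cells and 13 in vector cells. Its ratio of 1.51 had an interval of 0.692 to 3.39, which holds both no difference and more than 3-fold.

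**Figure D3:**
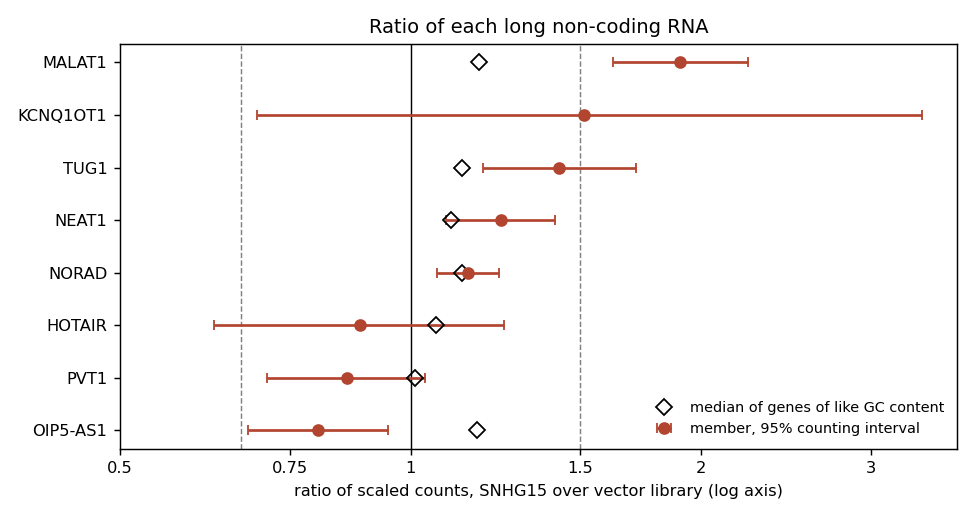
Ratio of scaled counts, SNHG15 over vector library (log axis), for the 8 measured members, with exact 95% counting intervals as bars. Diamonds give the median ratio of genes of like GC content and dashed lines mark 1.5-fold in both directions. MALAT1, at 1.90, is the only member whose whole interval lies above 1.5.

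The members were also set against each other. Of the 21 pairs among the 7 compared members, 14 had a ratio of ratios whose counting interval excluded 1, and this measure does not depend on how the libraries are scaled. Among the 27730 pairs of the 236 long non-coding RNA genes within the same range of mean CPM the share was 55.0%, beside 66.7% for the members, a background added after the data were seen and computed with Woolf intervals. All 6 pairs that include MALAT1 were among the 14. The widest was MALAT1 against OIP5-AS1, with 1.69 MALAT1 counts per OIP5-AS1 count in SNHG15 cells and 0.713 in vector cells, 2.37-fold apart (1.87 to 2.99). For NEAT1 against NORAD the interval held 1, at 1.08-fold (0.929 to 1.26), as it did for PVT1 against OIP5-AS1, at 1.07-fold (0.829 to 1.38).

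Long non-coding RNA genes as a class sat lower than the members. Their median log2 ratio was -0.20 over 637 genes, beside 0.02 over 11568 protein-coding genes. By the wider rule 58 of them were higher, 9.11%, and 145 lower, 22.8%. With library totals these were 80 higher and 112 lower, and when centred on the median of long non-coding RNA genes 104 higher and 98 lower. MALAT1 was 1 of the 58. The class also differed from the members in GC content, with a median of 51.6% against 43.1%. The 168 long non-coding RNA genes in the 4 lowest GC bins had a median log2 ratio of 0.01, and the other 469 had -0.23.

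**Figure D4:**
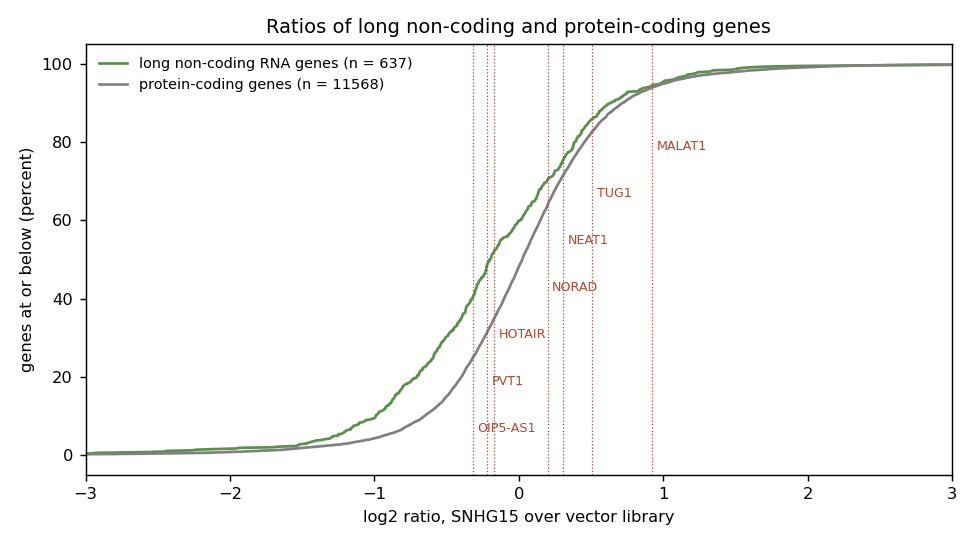
Cumulative share of genes (percent) against the log2 ratio, SNHG15 over vector library, for 637 long non-coding RNA genes (green) and 11568 protein-coding genes (grey), with the 7 compared members as dotted lines. The long non-coding curve lies to the left over most of the range, with a median of -0.20 against 0.02.

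The genes around each member were read as 3 compared genes on each side and any that overlap it. Around MALAT1 the neighbours were mostly lower: 4 of 6 were lower by the wider rule and 0 higher, with a median log2 ratio of -0.78. LTBP3, which binds latent TGF-beta, stood at 391 CPM in SNHG15 cells and 639 CPM in vector cells, a ratio of 0.612 (0.594 to 0.630), and the sparse ZNRD2-AS1 had 7 counts in SNHG15 cells and 46 in vector cells. AP000769.1, a pseudogene between NEAT1 and MALAT1, had 30 counts in SNHG15 cells and 117 in vector cells, a ratio of 0.297 (0.192 to 0.447). GC content of these 6 neighbours ran from 44.1% to 67.8%, against 40.3% for MALAT1. After the median of each gene's GC bin was subtracted, their median was -0.50, and MALAT1 was at 0.69. Over chromosome 11 as a whole the median log2 ratio was -0.23.

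**Figure D5:**
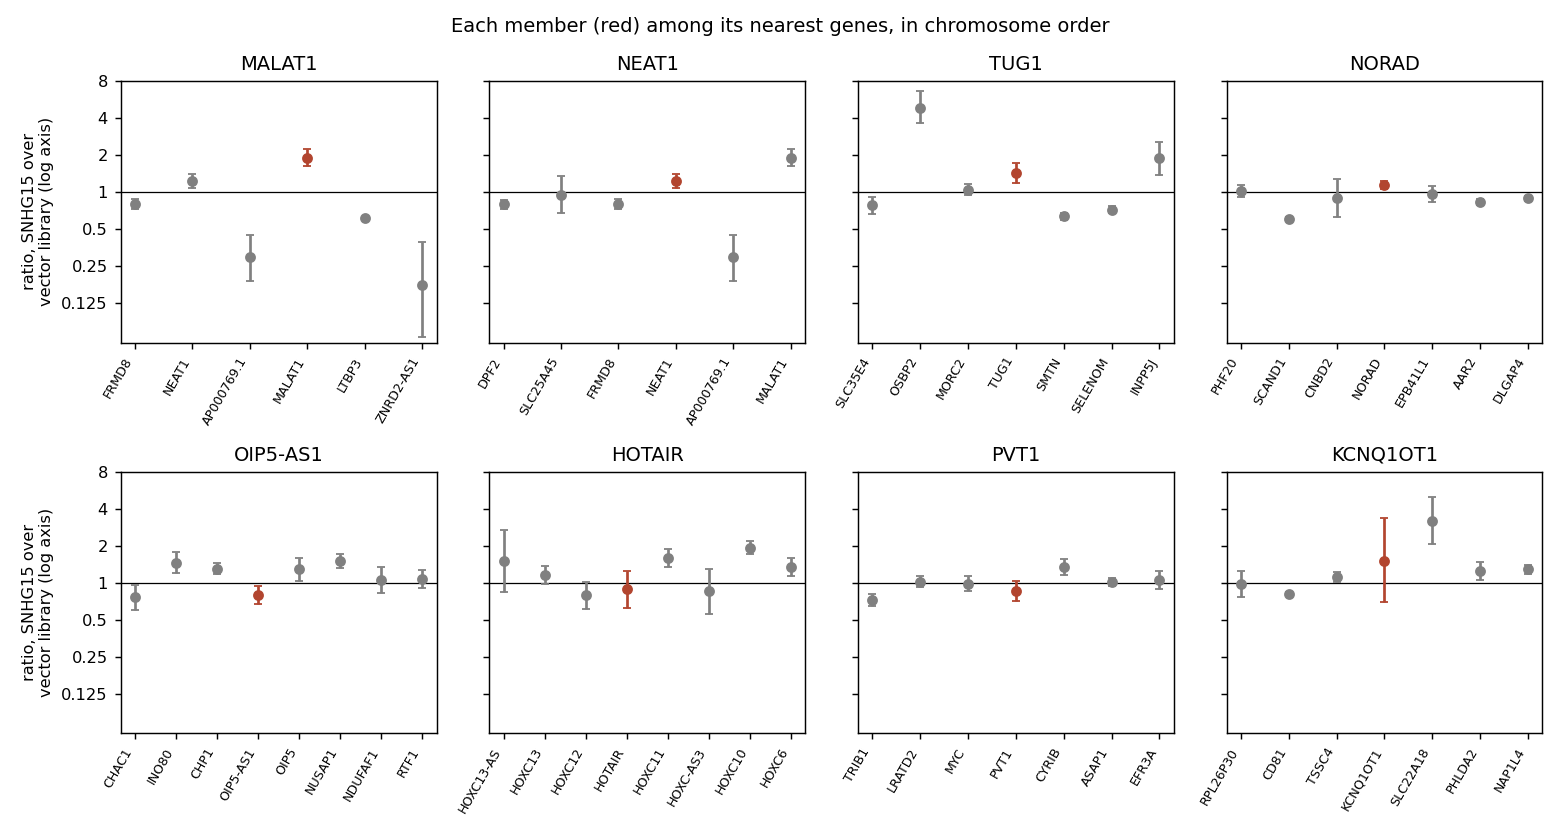
Ratio of scaled counts, SNHG15 over vector library (log axis), of each member (red) and its nearest compared genes (grey) in chromosome order, not to scale, with exact 95% counting intervals as bars. The MALAT1 and NEAT1 panels each show 5 of 6 compared neighbours. MALAT1 at 1.90 stands between AP000769.1 at 0.297 and LTBP3 at 0.612. The genes around PVT1 run from TRIB1 at 0.721 to CYRIB at 1.35, and all but MYC lie at least 1236 kb from it.

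Around the other members the pattern differed. HOTAIR, at 0.886, lay beside HOXC11 and HOXC10, homeobox genes of posterior body identity. HOXC11, which it overlaps on the opposite strand, had 328 counts in SNHG15 cells and 240 in vector cells, a ratio of 1.58 (1.34 to 1.88). HOXC10 had 701 counts in SNHG15 cells and 421 in vector cells, a ratio of 1.93 (1.71 to 2.18), and both were called higher by the wider rule. Of the 7 compared neighbours of HOTAIR these 2 were higher and 0 were lower. HOXC12 and HOXC-AS3, which lie nearer than HOXC10, were at 0.790 and 0.853, with intervals that held 1. HOXC13, HOXC13-AS and HOXC6 lay above 1 and were not called. Near TUG1, MORC2, which lies on the other strand, was at a ratio of 1.05 (0.945 to 1.17), while OSBP2, an oxysterol-binding protein gene, had 235 counts in SNHG15 cells and 56 in vector cells, a ratio of 4.86 (3.62 to 6.62). Of the 6 compared neighbours of TUG1, 2 were higher and 1 lower, SMTN at 0.637 (0.598 to 0.678). CHP1, 2.1 kb from OIP5-AS1, was at 1.30 (1.17 to 1.44). SCAND1, 86.15 kb from NORAD, was at 0.604 (0.581 to 0.629) and was the only 1 of the 6 neighbours of NORAD called. The nearest, CNBD2 at 14.9 kb, was at 0.902 (0.633 to 1.28). SLC22A18 in the KCNQ1OT1 domain had 82 counts in SNHG15 cells and 30 in vector cells, a ratio of 3.16 (2.06 to 4.98). Over all 47 pairs of a member and a compared neighbour, 6 were higher and 6 lower, with a median log2 ratio of 0.03.

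Genes linked to the members, as partners, processing genes, targets or neighbours, were read from lists. Each list stands beside the 13.3% higher, 12.2% lower and median of 0.02 over all genes. Of 17 paraspeckle proteins, the partners of NEAT1, 1 was higher and 0 lower, with a median log2 ratio of 0.13. That 1 was NONO, a core protein that paraspeckles need, at 482 CPM in SNHG15 cells and 240 CPM in vector cells, a ratio of 2.01 (1.94 to 2.08). Its partner SFPQ was at 1.496 (1.42 to 1.57), just under the 1.5-fold limit. Of 15 nuclear speckle proteins 3 were higher and 1 lower, with a median of 0.20. The splicing factor SRSF1 was at 1.64 (1.53 to 1.76) and the speckle scaffold SRRM2 at 0.577 (0.558 to 0.596).

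Of 13 genes of RNase P, RNase Z and the processing of the MALAT1 end, 1 was higher and 3 lower, with a median of -0.09. The RNA subunit of RNase P, RPPH1, had 69 counts in SNHG15 cells and 258 in vector cells, a ratio of 0.310 (0.234 to 0.405). ELAC2, the RNase Z that trims the tRNA-like end, was at 0.655 (0.624 to 0.687), and RPP14 at 1.72 (1.47 to 2.02). Beside RPPH1, other short structural RNAs were lower too. The list of structural RNAs and histone messages had 4 of 6 lower, RPPH1 among them, and 0 higher. The 2 not called were histone messages. RN7SL2 was at 281 counts in SNHG15 cells and 7444 in vector cells. The part of RNA or library preparation in these values was not tested.

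Of 7 genes listed for NORAD, 0 were higher and 0 lower, with a median of 0.20. These were Pumilio proteins and other partners, but also genes such as CDKN1B that are not partners. PUM2 was at 1.20 (1.02 to 1.42). Of 16 Polycomb and chromatin partners of HOTAIR, KCNQ1OT1 and TUG1, 3 were higher and 0 lower, with a median of 0.31. These were RBBP7, a histone-binding subunit, at 1.79 (1.64 to 1.95), MTF2, an accessory subunit, at 2.09 (1.44 to 3.06), and RCOR1, a corepressor that works with KDM1A, at 1.71 (1.45 to 2.02). Of 15 genes of MYC and its targets, 2 were higher and 0 lower, with a median of 0.01, among them the nucleolar NPM1 at 1.64 (1.56 to 1.71). Of the list of HOXC and HOXD genes, 11 were compared, all of them HOXC genes or antisense RNAs of that cluster, and 2 were higher and 0 lower, namely HOXC10 and HOXC11, with a median of 0.22.

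Of 7 compared imprinted genes of 11p15, the wider region in which KCNQ1OT1 lies, 1 was higher, SLC22A18, and 1 lower, with a median of 0.15. The lower one was IGF2, a growth factor, with 96 counts in SNHG15 cells and 241 in vector cells, a ratio of 0.461 (0.360 to 0.587). Of 3 compared imprinted genes of 14q32, 0 were higher and 0 lower, with a median of 0.26. The same held for 4 genes listed for OIP5-AS1, with a median of 0.14, among them its chromosomal neighbours OIP5 and NUSAP1. ELAVL1 was at 0.948 (0.897 to 1.002).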

How the data were processed

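Counts per gene were deposited by the authors as whole numbers without normalization, per the file headers. FPKM values and the log2 ratio, which equals the log2 of the FPKM ratio, were deposited by the authors beside them. The p-value deposited by the authors, beside an adjusted one, equals that of an exact test in edgeR with an assumed coefficient of variation. Reads were placed on hg38, going by the submitters' processing notes; aligner, counter, annotation release and strand are not given in the sources used here. There were 2 further columns of per-sample values, which were not used.

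Libraries were scaled by TMM (edgeR 4.0.16, R 4.3.3), with a factor of 1.04 in SNHG15 cells against 0.960 in vector cells. Ratios were given with exact conditional binomial (Clopper-Pearson) 95% intervals and levels with exact Poisson intervals, pairs of members with conditional odds ratios (scipy 1.17.1), and log2 ratios used a prior count of 2. Reads are not independent molecules, so intervals cover counting error only; 3 counts were 0.174 CPM in SNHG15 cells against 0.150 CPM in vector cells. Only genes whose mean reached 1 CPM entered the comparison. GENCODE 29 matched 18903 of 19029 identifiers, gave exons, biotype and GC content, and has the build of the files. Scripts were tested on simulated data.

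Named genes were the members, SNHG15, from each list up to 4 genes by the interval bound nearest to 1 and up to 2 by level, neighbours, and breast cell markers; GAS5, SNHG29, HCG11 and MORC2 follow from ranks, motif counts or position. The members, the 18 lists and the tests were chosen with earlier results of these data known. Some genes that the naming rule or the lists hold are not reported here, though counts and medians include them. Where a symbol had several rows, lists took the higher one. Also tried were library totals, DESeq2 1.42.0 size factors, GC and length trends removed, neighbouring genes as reference, prior counts of 0.5 and 10, FPKM with pseudocounts of 1 and 0.1, no filter and 5 CPM, point ratios and no same-strand overlap. Centring on the median of long non-coding RNA genes and levels per kb of merged exons were added after the data were seen.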

Additional observations from a re-analysis of the deposited data

How the results depend on the processing

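MALAT1, the only member called as reported, stayed above 0 in each alternative. Of 111 alternative values for the log2 ratios of single members 104 stayed within the counting interval, and 7 did not. With no filter, from 5 CPM, by point ratio and without same-strand overlap a member's log2 ratio is the reported one. Those values, counted among the 104, could not move and say nothing on stability. MALAT1 was 0.53 and no longer called with FPKM and a pseudocount of 1, under which 0 members were higher. NORAD was 0.32 with library totals, 0.028 with the GC trend removed, 0.31 with FPKM and a pseudocount of 0.1, and 0.40 when centred on long non-coding RNA genes, where NEAT1 was 0.51. OIP5-AS1 was -0.74, and the 1 member called lower, with neighbouring genes as reference and the GC trend removed. Members higher by the wider rule numbered 2, MALAT1 and TUG1, with library totals and 2 when centred on long non-coding RNA genes, where HOTAIR, not called, was 0.03. The median log2 ratio of all genes was 0.02 as reported, 0.13 with library totals, 0.12 with FPKM and a pseudocount of 0.1, and 0.21 when centred on long non-coding RNA genes. Its sign changed with DESeq2 size factors, at -0.026, and from 5 CPM, at -0.0073. The members' median was 0.028 with the GC trend removed, 0.015 without genes of same-strand overlap, and 0.40 when centred on long non-coding RNA genes. Over all genes the strict rule called 285 higher and 317 lower as reported. It called 146 higher and 156 lower with FPKM and a pseudocount of 1, 582 higher with 0.1, 162 higher from 5 CPM, 703 higher and 631 lower by point ratio, and 441 higher when centred on long non-coding RNA genes. The wider rule called 1725 higher and 1574 lower as reported, 765 and 592 with FPKM and a pseudocount of 1, 1023 higher from 5 CPM, and 2923 higher and 953 lower when centred on long non-coding RNA genes. With DESeq2 size factors the lower genes were the more numerous, at 1531 higher and 1748 lower. For long non-coding RNA genes the wider rule called 58 higher and 145 lower as reported, 80 and 112 with library totals, 87 and 115 with FPKM and a pseudocount of 0.1, 23 and 59 with a pseudocount of 1, 181 and 266 with no filter, 13 and 45 from 5 CPM, and 104 and 98 when centred on their own median. Of the ranks of MALAT1, NEAT1, NORAD and TUG1 among them, 10 of 16 alternatives moved by over 1.5 times. Of 238 list medians 26 moved. The cause of these shifts was not tested. Depth limits HOTAIR and KCNQ1OT1 most. No paired analysis was possible because each group has 1 library.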
